A study of Mus musculus with 6 samples.

Results

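The genes described here are 43 genes whose products copy DNA or divide chromosomes: 16 act in S phase or at its entry and 27 act mainly from G2 to the end of mitosis. They were taken by gene symbol from a list of known cell cycle genes, and all 43 were among the 16533 genes of the deposited count tables. They were followed in mouse inferior vena cavae 24 h after ligation, which stops flow and lets a thrombus form; each sample holds that thrombus together with the vein wall around it. In the mKO group the genotype was Stingf/f Lyzm-Cre+/-, in which Sting1 is loxP-flanked and Cre recombinase is driven from the Lyz2 locus, which is active in neutrophils, monocytes and macrophages; other cells keep Sting1. The control mice were Stingf/f, with the same floxed gene and no Cre. Sample titles call the groups WT and Sting mice, and the genotype label is followed here. Both groups had the ligation, so no unligated vein enters any comparison. The labels state neither age nor sex. Each group had 3 libraries, and RNA of 3 thrombi was pooled for each library, so errors are between pools and not between animals.

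Cells prepare for division in order. E2F factors switch on the S phase genes late in G1, the MCM helicase unwinds DNA at origins, and ribonucleotide reductase, thymidylate synthase and thymidine kinase supply deoxynucleotides. Cyclin B with CDK1 then drives mitosis, kinetochores and kinesins move the chromosomes, and the anaphase-promoting complex marks mitotic proteins for destruction. In blood clots and vessel wall most cells are resting or fully differentiated: mature neutrophils and platelets do not divide, whereas fibroblasts, macrophages, endothelial cells and bone marrow precursors can.

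S phase and mitotic promoters are known for different DNA elements, and the windows below are shown so that this difference can be seen beside the expression values. RefSeq promoter windows (build GRCm38.p6, 250 bases before to 50 after the annotated start, so 300 in all) were matched by symbol for 36 of the 43 genes, 14 S phase and 22 mitotic, and not for Mcm4, Ccne2, Ccna2, Foxm1, Aurkb, Kif20a and Tpx2; the counts were made on another build, GRCm39, and no position was carried between them. Searched on both strands were E2F sites (TTTGGCGC, TTTCCCGC, TTTCGCGC or TTTGCCGC), the CCAAT box bound by NF-Y, and the CHR element bound by the MuvB core of the DREAM complex (TTTGAA or TTCGAA). Matches of the same kind may overlap, and a match is a description of letters, not evidence of binding. Capitals in the sequences mark these matches. Rrm2, Tk1, Ube2c and Nusap1 are shown as the members of each class with the smallest unadjusted p among those with a window; Cdk1 and Mcm6 were added after the search because they hold several elements. The windows lie at chr12:24708004-24708303 (+ strand) for Rrm2, chr11:117825965-117826264 (- strand) for Tk1, chr1:128359656-128359955 (- strand) for Mcm6, chr2:164769679-164769978 (+ strand) for Ube2c, chr2:119618048-119618347 (+ strand) for Nusap1 and chr10:69352863-69353162 (- strand) for Cdk1.
Rrm2: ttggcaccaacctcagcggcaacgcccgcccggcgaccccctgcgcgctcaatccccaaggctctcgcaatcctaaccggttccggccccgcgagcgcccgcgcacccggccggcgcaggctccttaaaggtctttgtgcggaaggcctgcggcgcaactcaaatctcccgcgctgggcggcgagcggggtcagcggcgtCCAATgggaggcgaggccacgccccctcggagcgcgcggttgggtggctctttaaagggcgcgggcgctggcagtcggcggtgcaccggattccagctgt
Tk1: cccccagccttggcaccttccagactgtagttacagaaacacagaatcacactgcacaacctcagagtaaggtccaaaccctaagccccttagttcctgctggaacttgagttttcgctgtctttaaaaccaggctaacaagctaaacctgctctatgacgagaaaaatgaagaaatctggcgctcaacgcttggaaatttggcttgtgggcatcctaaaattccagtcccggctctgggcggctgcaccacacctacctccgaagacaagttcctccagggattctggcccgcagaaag
Mcm6: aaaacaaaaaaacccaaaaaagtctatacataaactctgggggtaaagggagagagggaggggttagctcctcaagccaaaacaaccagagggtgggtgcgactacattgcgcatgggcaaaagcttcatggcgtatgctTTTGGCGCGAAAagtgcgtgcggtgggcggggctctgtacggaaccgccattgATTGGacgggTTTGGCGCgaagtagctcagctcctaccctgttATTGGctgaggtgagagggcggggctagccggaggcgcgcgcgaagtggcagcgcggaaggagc
Ube2c: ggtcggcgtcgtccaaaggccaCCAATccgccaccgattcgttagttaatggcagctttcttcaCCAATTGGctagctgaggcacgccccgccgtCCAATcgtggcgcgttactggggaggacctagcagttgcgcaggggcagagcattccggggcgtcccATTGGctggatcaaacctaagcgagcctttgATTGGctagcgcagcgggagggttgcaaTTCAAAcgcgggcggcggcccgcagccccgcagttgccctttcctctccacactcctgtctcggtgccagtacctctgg
Nusap1: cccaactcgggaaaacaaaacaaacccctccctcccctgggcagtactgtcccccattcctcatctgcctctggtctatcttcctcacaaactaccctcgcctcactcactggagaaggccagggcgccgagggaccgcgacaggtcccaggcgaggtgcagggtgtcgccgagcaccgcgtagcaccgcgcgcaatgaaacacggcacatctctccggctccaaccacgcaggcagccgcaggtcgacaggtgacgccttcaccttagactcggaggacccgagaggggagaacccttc
Cdk1: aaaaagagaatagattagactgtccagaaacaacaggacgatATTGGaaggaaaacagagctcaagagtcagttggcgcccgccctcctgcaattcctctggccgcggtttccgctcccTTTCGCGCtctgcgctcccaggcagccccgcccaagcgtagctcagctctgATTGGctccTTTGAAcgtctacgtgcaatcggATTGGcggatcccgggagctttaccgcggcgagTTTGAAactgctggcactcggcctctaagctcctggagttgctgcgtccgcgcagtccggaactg

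An E2F site was found in 6 of the 14 S phase genes (42.9%) and in 1 of the 22 mitotic genes (4.55%), which was Cdk1, beside 2.60% of all 27025 genes with a window. A CHR element was found in 18 of 22 mitotic genes (81.8%) and in 2 of 14 S phase genes (14.3%), beside 21.7% of all genes. A CCAAT box was found in 18 mitotic genes (81.8%) and 9 S phase genes (64.3%), beside 41.1% of all genes. Both a CCAAT box and a CHR element stood in 16 mitotic windows (72.7%) and 2 S phase windows (14.3%), against 8.61% of all genes. The Ube2c window holds 6 CCAAT matches, of which 2 overlap, and 1 CHR match; the Nusap1 window holds none of the letters searched. The mitotic windows thus carried mostly CCAAT and CHR letters, and E2F letters were commoner in the S phase windows.

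Levels are given as CPM, read counts scaled to a common library size with TMM factors, which correct for differences in composition. Library totals ran from 166083163 to 172223654 counts in mKO and from 158579864 to 180068483 in control. All 43 members passed the filter on low counts, and 31 averaged at least 1 CPM. Within single libraries their counts ran from 17 (Ttk, control library 3) to 8039 (Pcna), and 5 members had fewer than 50 counts in at least 1 library, where counting error adds to the spread. Haemoglobin transcripts took 24.5% to 27.1% of counts in mKO and 21.2% to 25.5% in control. Sting1 was at 22.7, 21.4 and 28.7 CPM in mKO libraries 1 to 3, against 25.1, 31.4 and 27.1 CPM in control libraries 1 to 3, and edgeR quasi-likelihood gave a log2 fold change of -0.20 (SE 0.14) at adjusted p = 0.579. Sting1 therefore overlapped between the groups in whole tissue, where cells without Cre also contribute. Markers of the labelled tissue were present, with summed endothelial markers at 448 to 545 CPM in mKO and 576 to 670 CPM in control.

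Per length of exon, taken as the union of all annotated exons of a gene, proliferation genes stood low in this tissue. The median mitotic member had 0.315 CPM per kb of exon and the median S phase member 1.28 CPM per kb, against 2.26 CPM per kb for all genes tested. The highest was Pcna, the sliding clamp of the replication fork, at 16.9 CPM per kb, followed by the ubiquitin-conjugating enzyme gene Ube2c at 4.37 and the helicase subunit gene Mcm6 at 4.19. Mki67, the usual marker of cycling cells, had 0.574 CPM per kb. The centromere protein genes Cenpf (0.0374) and Cenpe (0.0512) and the checkpoint kinase gene Ttk (0.0663) were lowest. Ube2c thus stood 7.61 times above Mki67 per length.

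The study set mKO against control veins to find which transcripts differ once myeloid cells lose Sting1. By edgeR quasi-likelihood with Benjamini-Hochberg adjustment, 0 of the 43 members passed an adjusted p of 0.05, where 0 of 16523 genes tested did (0%). At an unadjusted p under 0.05 there were 2 members, Ube2c and Nusap1, both higher in mKO, and 0 lower (background 5.6% higher and 6.26% lower). The same 2 members were the only ones whose mKO libraries all lay above the control libraries, and for 0 members did they all lie below (background 8.76% higher and 9.39% lower). The share of members with separate groups, 4.65% higher and 0% lower, was under that of all genes in both directions. DESeq2 called these 2 members as well, where it called 1.47% of 16514 genes as higher and 1.33% as lower; limma voom called 0 members and 0% of genes. In bulk tissue, a difference in the number of cycling cells and a difference in RNA of these genes per cell cannot be told apart.

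The fold changes of the 43 members leaned above 0, and only Ube2c and Nusap1 separated the groups. Log2 fold changes, mKO over control, were positive for 36 members and negative for 7, where 45.9% of all genes were positive and 54.1% negative. The median was 0.14 for S phase members and 0.17 for mitotic members, against -0.03 for all genes tested. These medians rest on single pools: without mKO 1 the S phase median was -0.01, without control 3 it was 0.01, and without mKO 3 the mitotic median was -0.04. Without mKO 2 they were 0.34 and 0.40 in S phase and mitotic members. The number of negative members was 18 without mKO 1 or without mKO 3, 13 without control 3, 10 without control 1, 3 without control 2 and 1 without mKO 2. Single values ran from -0.19 for Ndc80, a kinetochore subunit that grips microtubules, to 0.96 for Ube2c. For 35 of 43 members (81.4%) the difference between group means was smaller than 1 within-group SD on the log2 scale, a share that was 55.5% over all genes. Because members share libraries and move together, their signs are not 43 separate observations.

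**Figure D1:**
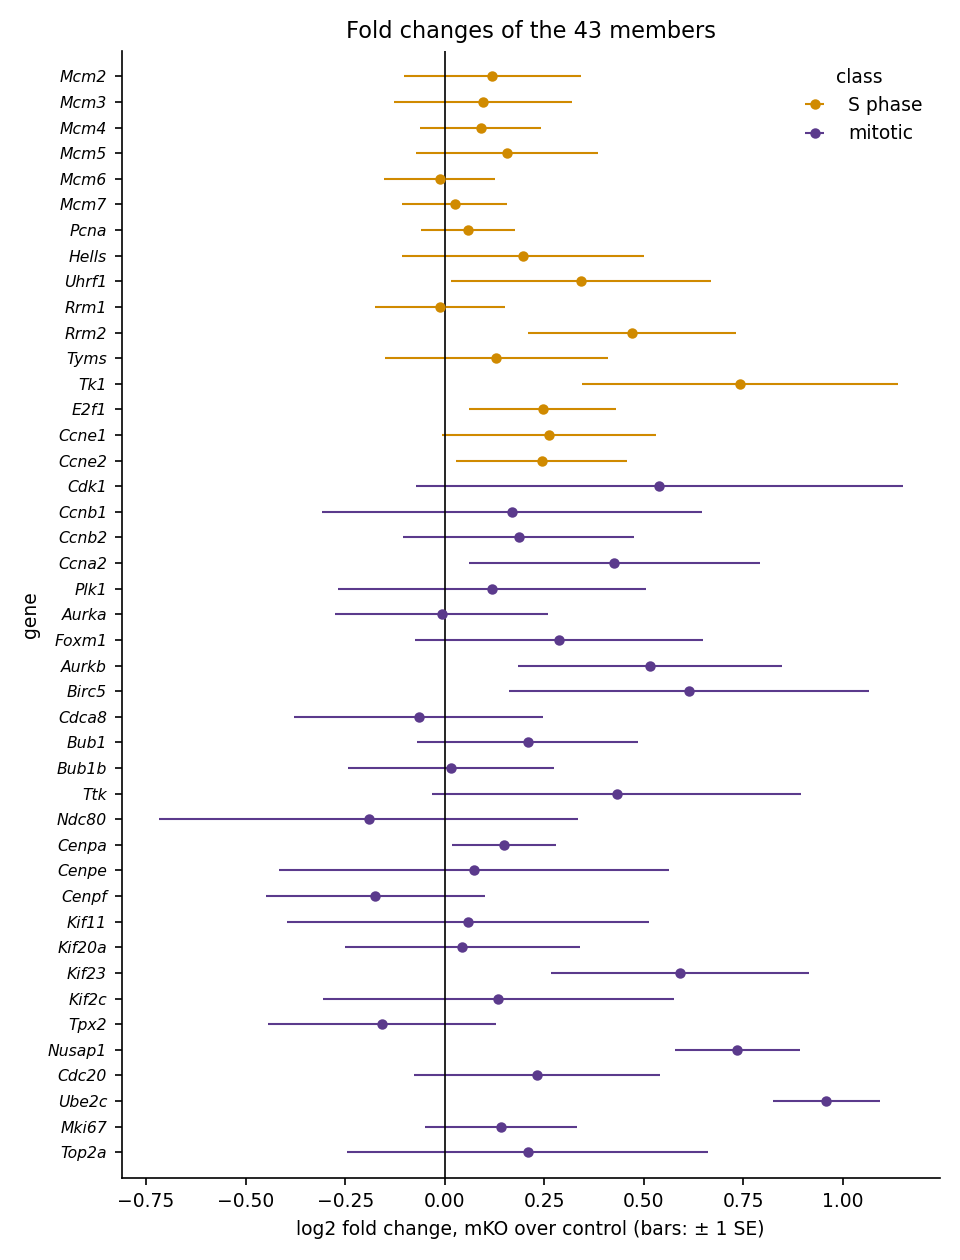
Log2 fold change of each member, mKO over control (x axis), with bars of 1 SE, for S phase (orange) and mitotic genes (purple). Ube2c (0.96) and Nusap1 (0.73) stand farthest from 0 relative to their SE; most bars include 0.

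The pools differed from each other more than the genotypes did, and they did so for both classes together. In 24 of the 43 members (55.8%) the 2 lowest libraries were mKO library 2 and control library 3; this held for 13 of 16 S phase and 11 of 27 mitotic members, and for 8.26% of all genes tested. In 31 members (72.1%) the 3 highest libraries were mKO 1, mKO 3 and control 2, which held for 6.94% of all genes. This pattern was looked for after the values were seen, and no test was made of it. The mean log2 level of the S phase members relative to the 6-library mean was 0.34, -0.30 and 0.24 in mKO libraries 1 to 3, against -0.06, 0.14 and -0.35 in control libraries 1 to 3. For the mitotic members it was 0.23, -0.38 and 0.46 in mKO, against -0.17, 0.22 and -0.36 in control. Each genotype thus held a low pool and at least 1 high pool, and both classes ordered mKO 2 and control 3 last.

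**Figure D2:**
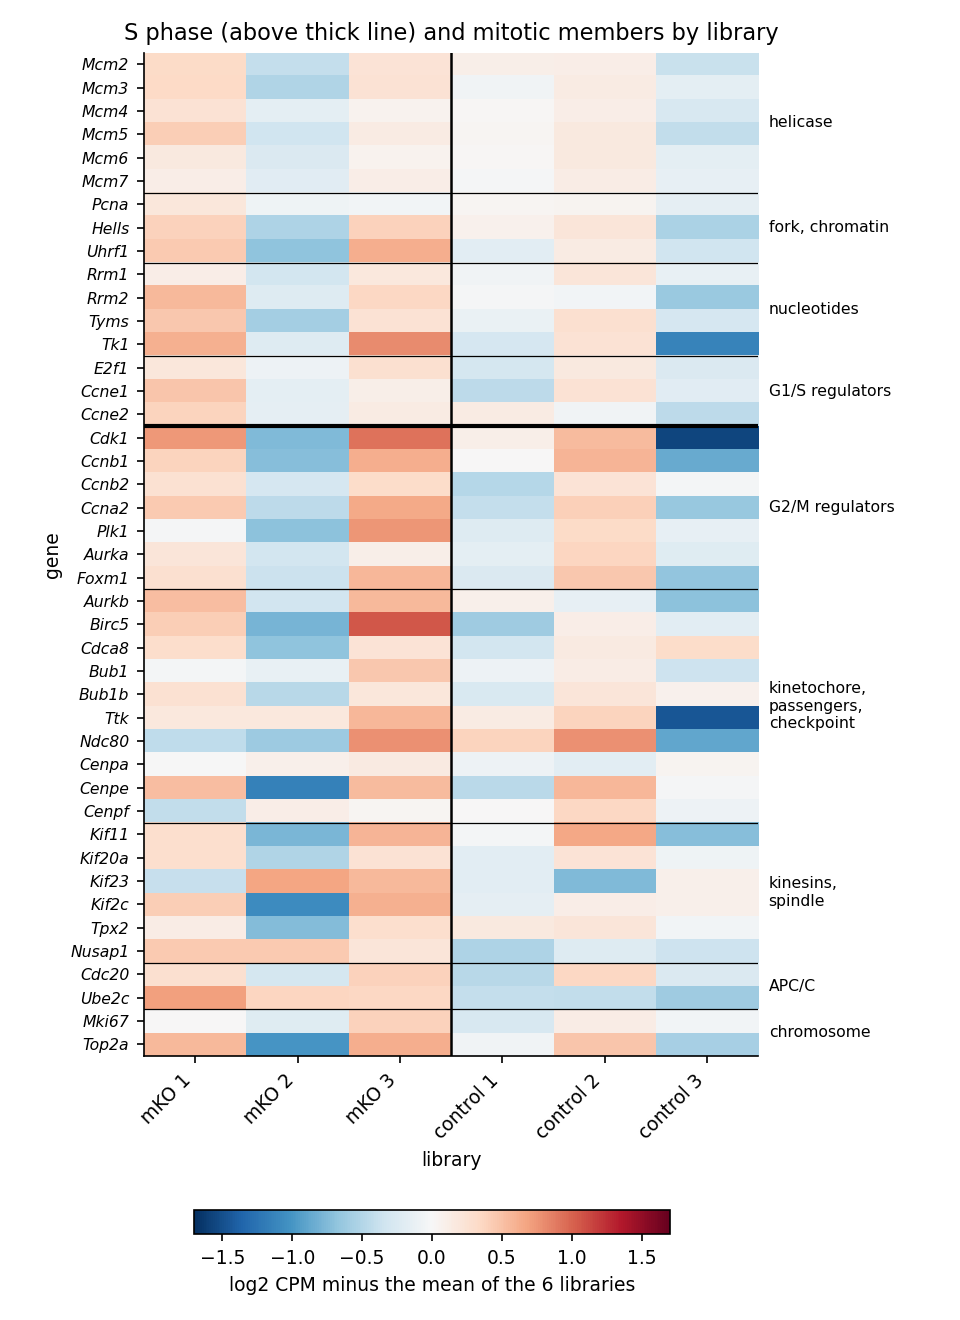
Log2 CPM of each member minus its mean over the 6 libraries (colour, red high and blue low), by gene (rows, grouped by role) and library (columns). Columns mKO 2 and control 3 are blue for most genes; Ube2c and Nusap1 are red in all 3 mKO columns.

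Other cell types moved with this order in part. Of the fibroblast and mesothelium list 6 of 8 markers were measured, and its mesothelial markers, Msln and Upk3b, were not. The 6 fibroblast markers summed to 898, 480 and 892 CPM in mKO libraries 1 to 3, against 929, 1189 and 586 CPM in control libraries 1 to 3. Thus mKO 2 and control 3 were lowest there too. Mature neutrophil markers (7 of 7) summed to 15900, 18700 and 13270 CPM in mKO, against 15910, 9543 and 12910 CPM in control, highest in mKO 2. The single markers did not all share this order. S100a8, S100a9, Csf3r and Cxcr2 were highest in mKO 2, Retnlg in control 3, and Mmp8 and Il1r2 in control 1. Skeletal muscle markers (7 of 8) reached 184 CPM in mKO 3 and 50.1 CPM in control 3 but 3.16 to 24.5 CPM elsewhere. No measured marker had a group mean of 0, and the part of these cells in the members' order was not tested.

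Among S phase genes, the helicase had the smallest median difference between groups. Mcm2 to Mcm7 encode the 6 subunits of the ring that opens DNA at the fork, and 5 of 6 had a positive log2 fold change, with a median of 0.09. Mcm6, with the highest CPM of the 6, was at 21.8, 16.4 and 20.2 CPM in mKO, against 19.8, 21.9 and 17.3 CPM in control. Its log2 fold change was -0.01 (SE 0.14). Mcm5 was at 8.33, 4.93 and 6.88 CPM in mKO, against 6.38, 6.999 and 4.69 CPM in control, and its log2 fold change was 0.16 (SE 0.23). The groups overlapped for both, and in each the lowest library of mKO was mKO 2 and the lowest of control was control 3. Mcm4 likewise had 12.8, 9.61 and 11.3 CPM in mKO, against 11, 11.6 and 8.96 CPM in control. Adjusted p over the 6 subunits was 0.782 or above by edgeR quasi-likelihood.

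Genes that copy DNA and chromatin at the fork ranged from a narrow to a wide spread. Pcna was at 46.5, 38.5 and 39.3 CPM in mKO, against 41.4, 41.6 and 36.3 CPM in control, the narrowest of the 3, with a log2 fold change of 0.06 (SE 0.12). Uhrf1, which reads hemimethylated DNA and brings the maintenance methyltransferase to it, was at 7.23, 3.31 and 8.15 CPM in mKO, against 4.71, 5.84 and 4.21 CPM in control. Its groups overlapped, and mKO 2 was the lowest of all 6 libraries, and the log2 fold change was 0.34 (SE 0.33). Hells, a chromatin remodeller that also serves DNA methylation, had 3.81, 2.02 and 3.79 CPM in mKO, against 3.06, 3.34 and 1.99 CPM in control. In Hells the low pools of the 2 groups stood at nearly the same level.

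Nucleotide supply held the S phase genes with the largest fold changes. Tk1, the cytosolic thymidine kinase, was at 3.33, 1.88 and 3.804 CPM in mKO, against 1.79, 2.6 and 0.994 CPM in control. The groups overlapped, since mKO 2 lay below control 2, and edgeR quasi-likelihood put its log2 fold change at 0.74 (SE 0.40), adjusted p = 0.491. Rrm2, the S phase subunit of ribonucleotide reductase, was at 4.08, 2.39 and 3.56 CPM in mKO, against 2.75, 2.68 and 1.801 CPM in control, and its log2 fold change was 0.47 (SE 0.26). Rrm1, the large subunit of the same enzyme, had 10.8, 8.08 and 11.3 CPM in mKO, against 9.68, 11.6 and 9.22 CPM in control, and a log2 fold change of -0.01 (SE 0.16). Values of Rrm1 and Rrm2 both overlapped between groups, although the estimate lay near 0 for Rrm1 only. Tyms, thymidylate synthase, had a log2 fold change of 0.13 (SE 0.28).

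The regulators of S phase entry had fold changes of similar size. E2f1, an activator of S phase genes, was at 4.77, 3.95 and 5.03 CPM in mKO, against 3.397, 4.69 and 3.505 CPM in control. Ccne2, a cyclin E that activates CDK2, was at 4.6, 3.18 and 3.87 CPM in mKO, against 3.88, 3.38 and 2.59 CPM in control. Log2 fold changes were 0.25 (SE 0.18) for E2f1, 0.24 (SE 0.21) for Ccne2 and 0.26 (SE 0.27) for its relative Ccne1. In all 3 genes the groups overlapped, and adjusted p was 0.589 or above by edgeR quasi-likelihood.

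Mitotic genes varied more between pools than S phase genes, at lower levels. The ratio of the highest to the lowest library had a median of 2.37 over mitotic members and 1.78 over S phase members, against 1.57 over all genes. Cdk1, the mitotic kinase, spread most of all members, 5.6-fold between its highest and its lowest library. It was at 2.03, 0.72 and 2.31 CPM in mKO, against 1.301, 1.77 and 0.413 CPM in control, and its log2 fold change was 0.54 (SE 0.61). Ccna2, the cyclin A of S and G2 phase, was at 3.28, 1.77 and 3.76 CPM in mKO, against 1.82, 3.19 and 1.55 CPM in control, and its log2 fold change was 0.43 (SE 0.37). For both genes mKO 2 and control 3 were lowest and the groups overlapped. Log2 fold changes of the other G2 and M regulators were 0.29 for the transcription factor gene Foxm1, 0.17 and 0.19 for the cyclin B genes, 0.12 for the polo-like kinase gene Plk1 and -0.01 for the centrosomal kinase gene Aurka.

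Kinetochore, passenger and checkpoint genes ran from -0.19 for Ndc80 to 0.61 for Birc5 in log2 fold change, 7 of 10 above 0. Birc5, or survivin, a subunit of the chromosomal passenger complex, was at 1.27, 0.5498 and 1.97 CPM in mKO, against 0.621, 1.02 and 0.833 CPM in control. Aurkb, the kinase of that complex, was at 1.27, 0.707 and 1.299 CPM in mKO, against 0.936, 0.806 and 0.549 CPM in control. A further subunit, Cdca8 (borealin), had a log2 fold change of -0.07 (SE 0.31), so members of this complex lay on both sides of 0. The complex's genes overlapped between groups in every case. Cenpa, the histone H3 variant that marks centromeres, was at 5.55, 5.92 and 6.22 CPM in mKO, against 5.27, 4.93 and 5.76 CPM in control. Cenpa varied only 1.26-fold over the 6 libraries and did not follow the order of the pools seen in most members, and its log2 fold change was 0.15 (SE 0.13).

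Mki67 and Top2a, which coat and untangle mitotic chromosomes, did not separate the groups. Mki67 was at 5.76, 4.95 and 7.47 CPM in mKO, against 4.72, 6.22 and 5.54 CPM in control, and edgeR quasi-likelihood gave 0.14 (SE 0.19) on the log2 scale, adjusted p = 0.7603. Top2a was at 3.895, 1.33 and 4.08 CPM in mKO, against 2.55, 3.69 and 1.81 CPM in control, a log2 fold change of 0.21 (SE 0.45). Cdc20, an activator of the anaphase-promoting complex, was at 1.33, 0.897 and 1.45 CPM in mKO, against 0.795, 1.42 and 0.929 CPM in control, a log2 fold change of 0.23 (SE 0.31). In all 3 genes mKO 3 was the highest of the 6 libraries and mKO 2 lay at or below the middle of the control values.

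Ube2c and Nusap1 stood apart from the members described so far. Ube2c (ENSMUSG00000001403, chromosome 2) encodes the ubiquitin-conjugating enzyme that works with the anaphase-promoting complex. It was at 17.4, 13.9 and 13.7 CPM in mKO libraries 1 to 3, against 8.12, 8.02 and 7.04 CPM in control libraries 1 to 3. Every mKO library lay above every control library, with a mean of 15.01 ± 2.104 CPM in mKO against 7.72 ± 0.599 CPM in control (SD, n = 3 each). By edgeR quasi-likelihood this was a log2 fold change of 0.96 (SE 0.13), or 1.94-fold, at adjusted p = 0.134, which does not pass. DESeq2 gave an adjusted p of 4.36e-07, and over the other 15 alternatives adjusted p ran from 0.111 to 0.423. Over all 16 alternatives its log2 fold change ran from 0.84 to 1.02.

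Nusap1 (ENSMUSG00000027306, chromosome 2), a microtubule-binding protein of the spindle, was at 5.24, 5.25 and 4.45 CPM in mKO, against 2.67, 3.31 and 3.002 CPM in control. The groups did not overlap, with means of 4.98 ± 0.455 CPM in mKO and 2.99 ± 0.317 CPM in control (SD, n = 3 each). For Nusap1 edgeR quasi-likelihood estimated 0.73 (SE 0.16) on the log2 scale, adjusted p = 0.221; DESeq2 gave 9.45e-04, and the other 15 alternatives gave 0.201 to 0.536. Ube2c and Nusap1 kept the sign of their fold change under all 16 alternatives. They were among 16 members with the same sign in every alternative that measured them. The alternatives reuse the same 6 libraries, so a kept sign is not a replication, and the share of all genes that kept theirs is not given.

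Kif23 (ENSMUSG00000032254, chromosome 9), a kinesin of the central spindle needed for cytokinesis, had a higher mean in mKO without separating the groups. It was at 8.24, 17.2 and 15.9 CPM in mKO, against 9.499, 6.41 and 11.5 CPM in control, and edgeR quasi-likelihood gave 0.59 (SE 0.32) on the log2 scale, adjusted p = 0.503. Its highest library was mKO 2, the pool in which Cdk1, Top2a and Mki67 were low. In Nusap1 mKO 2 stood level with mKO 1, and in Ube2c level with mKO 3. The ratio of Ube2c to Top2a reads was 4.48, 10.4 and 3.37 in mKO libraries 1 to 3, against 3.18, 2.17 and 3.88 in control libraries 1 to 3. The ratio of Ube2c to Mki67 was 3.03, 2.80 and 1.84 in mKO, against 1.72, 1.29 and 1.27 in control, and that of Ube2c to Cdk1 was 8.59, 19.2 and 5.94 in mKO, against 6.24, 4.54 and 17.0 in control. The groups were separate for the ratio to Mki67 and overlapped for those to Top2a and Cdk1, and mKO 2 was highest for Top2a and Cdk1 but not for Mki67. Ube2c alone already separated the groups and Mki67 varied only 1.58-fold over the libraries, so the ratio to Mki67 is no separate evidence. These reads ratios are between genes of unequal length and are compared here only between libraries.

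**Figure D3:**
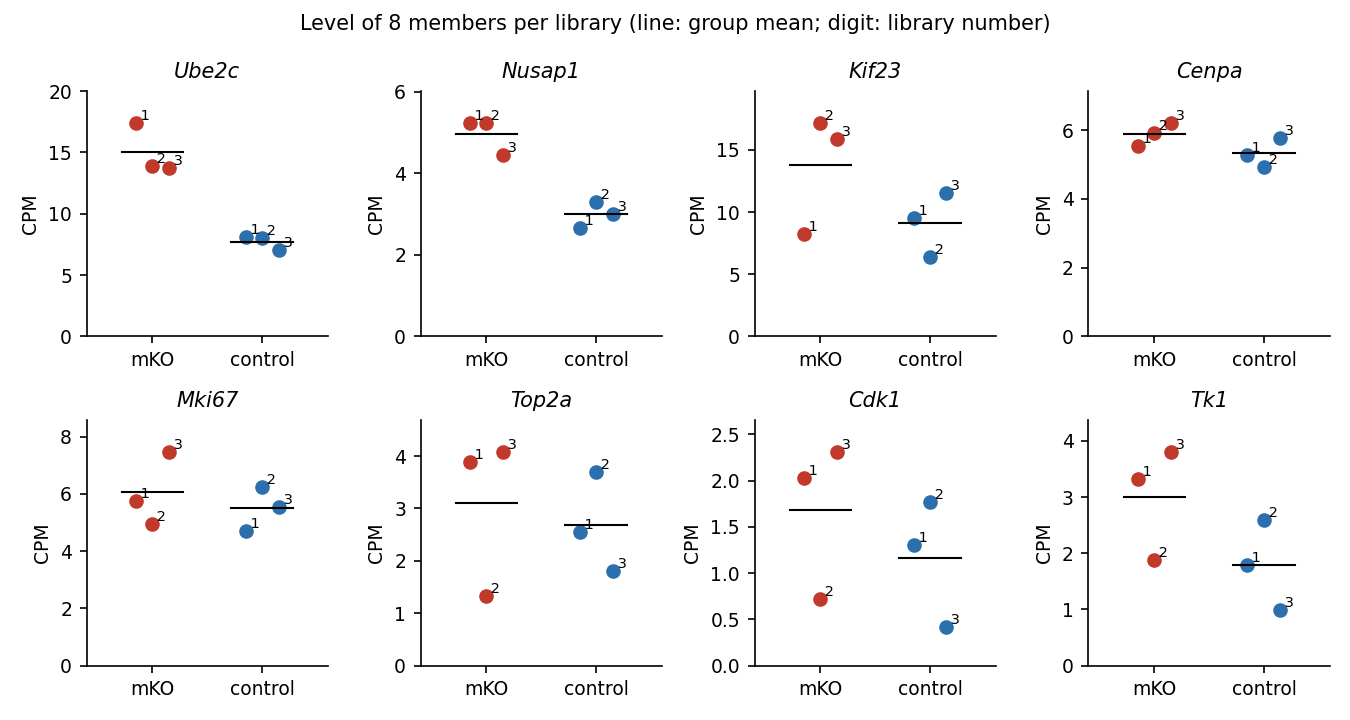
CPM of 8 members in each library (points, numbered within group; line, group mean), mKO left and control right. Ube2c and Nusap1 do not overlap between groups; Cdk1, Top2a and Tk1 are lowest in library 2 of mKO and library 3 of control.

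Reads of neighbouring genes could enter some of these counts, since strand is not stated. In the GENCODE M21 annotation 22.8% of the exon bases of Ube2c are shared with Tnnc2, the fast skeletal troponin C gene on the other strand. Tnnc2 was at 2.04, 0.0524 and 10.7 CPM in mKO, against 0.0599, 0.0768 and 2.905 CPM in control, so in mKO 2 it was near 0 while Ube2c was at 13.9 CPM. Of Nusap1, 4.24% of exon bases are shared with Oip5 on the other strand, a gene at 0.393, 0.242 and 0.287 CPM in mKO and 0.288, 0.433 and 0.374 CPM in control. Larger shares were found for Kif20a (29.3% with Cdc23) and smaller ones for Ccne2 (17.4% with Ints8) and Ccna2 (12.5% with Exosc9). Pcna, Tyms, Ccnb1 and Ccnb2 have annotated pseudogenes named after them, and their counts are uncertain where reads were split with a copy.

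Setting both classes side by side, the summed level of mitotic genes did not overlap between groups, and that of S phase genes did. The 16 S phase members summed to 172, 122 and 159 CPM in mKO libraries 1 to 3, against 143, 156 and 122 CPM in control libraries 1 to 3. The 27 mitotic members summed to 70.6, 62.8 and 80.2 CPM in mKO, against 50.6, 57.7 and 51.0 CPM in control, with no overlap. Of the mean difference of 18.1 CPM in the mitotic sum, Ube2c made up 40.3%, Kif23 25.6% and Nusap1 11.0%, or 76.9% together. Without these 3, which were chosen after their values were seen, the other 24 summed to 39.7, 26.5 and 46.2 CPM in mKO, against 30.3, 40.0 and 29.5 CPM in control, and the groups overlapped. The S phase sum was 1.94 to 2.44 times the mitotic sum in mKO and 2.40 to 2.83 times in control. The median log2 fold changes of S phase and mitotic members differed by -0.03, less than the 0.14 SD between libraries of the same group in the difference of the 2 class levels.

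**Figure D4:**
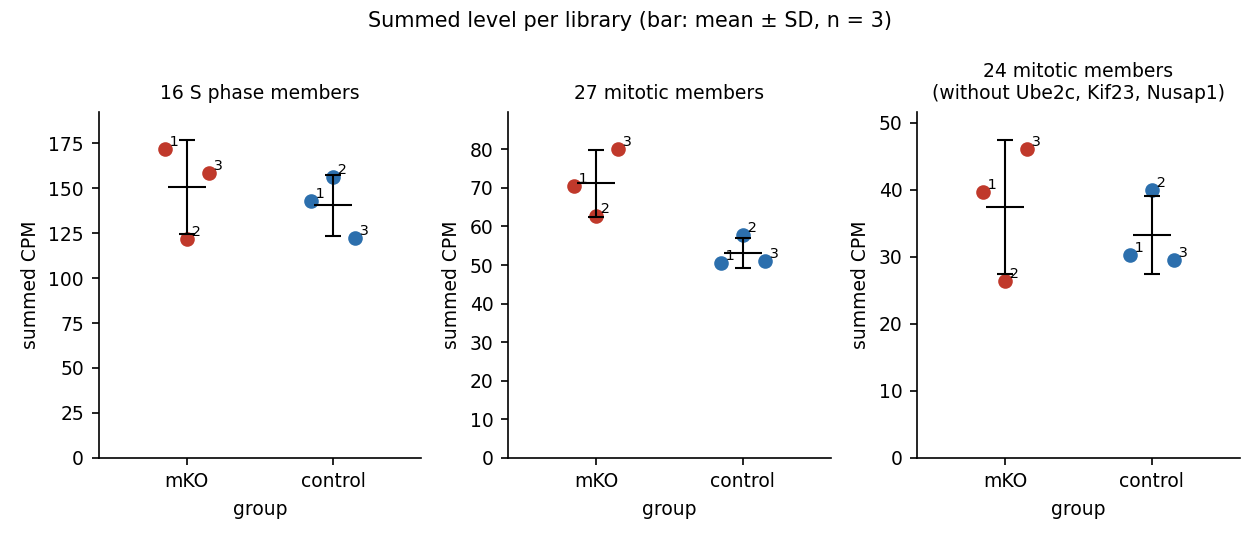
Summed CPM of 16 S phase members, 27 mitotic members and 24 mitotic members without Ube2c, Kif23 and Nusap1 (points, libraries numbered within group; bar, mean ± SD, n = 3), mKO left. Only the sum over all 27 mitotic members does not overlap between groups.

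Other genes of the cell cycle were read from 6 lists chosen by function, of which 169 of 179 genes were measured. By edgeR quasi-likelihood 0 of the 169 passed an adjusted p of 0.05 (0% of all genes); at an unadjusted p under 0.05 there were 10 higher and 5 lower (background 5.6% higher and 6.26% lower). Origin and fork genes had a median log2 fold change of 0.05 over 46 genes. Kinetochore and checkpoint genes had 0.11 over 33, spindle, cytokinesis and condensin genes 0.09 over 42, and nucleotide synthesis genes -0.10 over 16. G1 cyclins and CDK inhibitors had 0.07 over 16 and E2F and DREAM factors 0.08 over 16. These medians lay nearer to 0 than those of the members.

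The gene with the smallest p of these lists was E2f2, an E2F factor known for its role in the maturation of red cell precursors. It was at 23.5, 24.7 and 26.5 CPM in mKO, against 15.2, 12.4 and 16.9 CPM in control, and edgeR quasi-likelihood gave 0.75 (SE 0.13) on the log2 scale, adjusted p = 0.17. Its dimer partner Tfdp2 was at 37.4, 39.7 and 27.96 CPM in mKO, against 21.6, 24.2 and 21.4 CPM in control, and the same test gave 0.64 (SE 0.15), adjusted p = 0.231 (edgeR). Both genes lay higher in every mKO library than in any control library, and neither was low in mKO 2. DESeq2 called both and Dna2, a nuclease of Okazaki fragments, 3 of the 169 in all, with adjusted p of 8.97e-04 for E2f2, 0.00767 for Tfdp2 and 0.0327 for Dna2; the other 15 alternatives gave 0.146 to 0.425 for E2f2, 0.211 to 0.519 for Tfdp2 and 0.250 to 0.644 for Dna2. Dna2 was at 8.06, 9.57 and 10.2 CPM in mKO, against 5.68, 5.87 and 7.14 CPM in control. Of the factors that hold cells in G1, Cdkn1c (p57) was at 1.97, 1.38 and 1.34 CPM in mKO, against 2.53, 2.96 and 2.28 CPM in control, and its log2 fold change was -0.73 (SE 0.23). Ccnd1, the cyclin D that answers growth signals, was at 23.3, 19.2 and 22 CPM in mKO, against 29.01, 26.4 and 30.9 CPM in control, with -0.42 (SE 0.11). Both were lower in every mKO library, and neither passed, with adjusted p of 0.317 and 0.275 by edgeR quasi-likelihood. Most of their list went the other way, with 12 of 16 log2 fold changes positive and 4 negative. The CDK inhibitor genes Cdkn1a and Cdkn1b had 0.16 (SE 0.21) and 0.30 (SE 0.20).

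The remaining lists were named by the same rule, from the 2 smallest p. Log2 fold changes were 0.35 (SE 0.11) for Slbp, the histone mRNA stem-loop binding protein, 0.49 (SE 0.14) for the nucleotide pyrophosphatase Dctpp1 and -0.55 (SE 0.20) for Dut, which removes dUTP. They were 0.78 (SE 0.33) for Ska3 and 0.32 (SE 0.14) for Cenpo, both of the kinetochore, and 0.42 (SE 0.16) for the CDK subunit Cks2 and 0.88 (SE 0.38) for the kinase Melk. Adjusted p of these 7 ran from 0.304 to 0.424 by edgeR quasi-likelihood, so none passed.

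**Figure D5:**
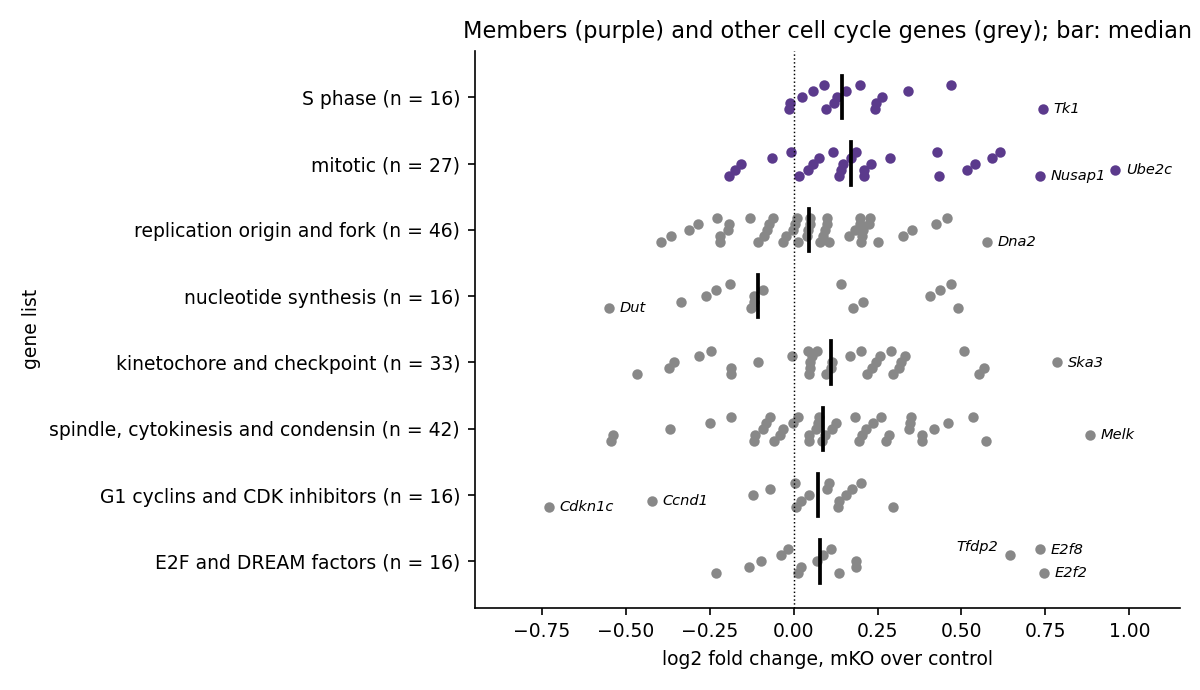
Log2 fold change, mKO over control, of the members (purple) and of 6 lists of other cell cycle genes (grey); each point is a gene and the bar is the list's median. Medians lie between -0.10 and 0.17. Ube2c (0.96), Melk (0.88) and Ska3 (0.78) lie farthest to the right and Cdkn1c (-0.73) farthest to the left.

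Markers of cells that could carry these transcripts were read from lists by cell type, and most sums given here overlapped between groups. Of 10 neutrophil precursor markers, Mpo, Elane, Ctsg, Ms4a3 and Fcnb were not among the genes counted. The 5 measured summed to 413 to 1292 CPM in mKO and 586 to 1376 CPM in control. Most of this sum was Chil3 (mean 714 CPM in mKO and 848 CPM in control) and Ngp (123 and 153 CPM). Prtn3, Ltf and Camp averaged only 2.20, 3.43 and 0.77 CPM over the 6 libraries. Monocyte and macrophage markers (10 of 10) summed to 769 to 997 CPM in mKO and 693 to 786 CPM in control, and platelet markers (7 of 7) to 2956 to 4501 CPM in mKO and 3954 to 5842 CPM in control. T and NK cell markers (8 of 8) summed to 17.9 to 19.5 CPM in mKO and 18.3 to 35.1 CPM in control, and B and plasma cell markers (7 of 7) to 27.6 to 44.1 CPM in mKO and 21.7 to 54.3 CPM in control. Single markers of the macrophage, T and NK, and B cell lists did separate the groups. Jchain was at 4.964, 3.515 and 5.332 CPM in mKO, against 1.998, 1.245 and 1.452 CPM in control. Cd68 (mean 210.6 against 138.8 CPM) and Csf1r (202.5 against 162 CPM) were also higher in every mKO library. Gzmb (mean 1.487 against 4.766 CPM) and Nkg7 (1.514 against 3.487 CPM) were lower there. None passed by edgeR quasi-likelihood, and DESeq2 called all but Csf1r. The other markers of these lists overlapped. Of the lists given here, sums did not overlap between groups for endothelial markers (8 of 8, values above) and adipocyte markers (7 of 7), which summed to 618 to 868 CPM in mKO and 1027 to 1192 CPM in control. Smooth muscle markers (7 of 7) summed to 669 to 1460 CPM in mKO and 1201 to 3013 CPM in control. The part of these cells in the members' values was not tested.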

How the data were processed

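Each library has 1 deposited table of whole-number counts by gene, left unscaled by the authors. The submitters' processing notes list, without roles, featureCounts 2.0.1, HISAT2 2.1.0, FastQC 0.11.8, Trim Galore 0.4.0 and the build GRCm39; the sources used here do not give the annotation release, the strand setting or how multi-mapping reads were treated. Polyadenylated RNA was sequenced in paired ends, per the labels' protocols.

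Differences were tested by edgeR 4.0.16 under R 4.3.3 (TMM, default filter, robust quasi-likelihood F-test; 16523 genes; Benjamini-Hochberg over all of them, threshold 0.05). SE is implied by F. DESeq2 1.42.0 and limma 3.58.1 were alternatives. Exon lengths are the union of all exons of a gene in GENCODE M21, so levels and ranks per kb depend in part on that annotation. Counts were simulated from the dispersions and library scaling that edgeR estimated here, so false calls of DESeq2 in them need not carry over to the real counts. In these simulated data, edgeR recovered 47 of 100 genes changed 2-fold and 96 of 100 changed 4-fold, with 15 of 158 calls false. DESeq2 recovered 68 and 98, with 66 of 232 calls false. With no gene changed, edgeR called 0 and DESeq2 24. No replicate libraries agreed within sampling noise.

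Members and lists were chosen with earlier results of these data known. Values in every library are given for Mki67 and, per role group, the 2 members with the smallest p and the one with the highest CPM; of each further list, the 2 genes with the smallest p. Tnnc2, Oip5, Jchain, Cd68, Csf1r, Gzmb and Nkg7 were added after their values were seen. The erythroid precursor marker list is not reported here.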

Additional observations from a re-analysis of the deposited data

How the results depend on the processing

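Alternatives were other scalings (DESeq2 size factors, upper-quartile factors, library totals only, haemoglobin and mitochondrial genes left out), other filters, DESeq2, limma voom, blocking on replicate number, omitting libraries 1 at a time, and, added after seeing the data, leaving out the 2 libraries richest in skeletal muscle transcripts (mKO 3 and control 3). Over all genes, DESeq2 called 462 where edgeR called 0, leaving out 1 library gave 0 to 7, and leaving out mKO 3 and control 3 gave 6. DESeq2 called 2 members and 3 of the other cell cycle genes, all as higher, beside 1.47% of 16514 genes as higher and 1.33% as lower. Every other alternative called 0 of either.

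The median of S phase members was 0.14; it ran from -0.01 (without mKO 1) to 0.34 (without mKO 2) on leaving out 1 library, and was 0.01 without control 3. The mitotic median was 0.17; it ran from -0.04 (without mKO 3) to 0.40 (without mKO 2). Without mKO 3 and control 3 the medians were -0.02 for S phase and -0.10 for mitotic members, and 27 of 43 members were negative where 7 were with all libraries. The S phase minus mitotic median, -0.03, ran from -0.19 (without mKO 1) to 0.13 (without mKO 3). Sign and size of both medians thus depend on single pools. Scaling changed them less: with library totals only they were 0.10 and 0.12, with DESeq2 size factors 0.17 and 0.19, while the median of all genes stood at -0.08 and -0.01.

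The labels state no pairing of libraries by replicate number. Deviations from group means correlated at -0.14, -0.15 and -0.27 for same-numbered libraries across all genes. For other pairs they ran from -0.09 (mKO 2 with control 1) to 0.24 (mKO 2 with control 3). Deviations within a group sum to 0, so these correlations cannot decide whether libraries shared a batch. With a replicate block 0 genes and 0 members were called, and the medians were 0.13 for S phase and 0.15 for mitotic members. Depth limits the lowest members: Ttk, Kif2c, Ccnb1, Cenpe and Ndc80 each had under 50 counts in at least 1 library.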
